A study of Homo sapiens with 6 samples.

Results

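The genes of 8 proteins that build the red cell membrane were followed in K562 cells, from nascent transcription to steady-state RNA. They are GYPB, GYPC and GYPE of the glycophorins, RHAG of the Rh complex, and SPTB, ANK1, EPB41 and EPB42 of the membrane skeleton. They were listed by name and function, and each counted transcript was matched by its Ensembl identifier to a GENCODE gene symbol. Of the 8 genes, 7 were matched among the 42371 transcripts counted in every library, 1 transcript a gene. No counted transcript was matched to EPB42, the gene of protein 4.2, and it was not analysed here. K562 is an erythroid-like human leukemia line that can make embryonic and fetal globins. All 6 libraries came from untreated K562 cells of 1 flask, 2 of them by PRO-seq, which counts engaged RNA polymerases along a gene, and 4 by RNA-seq of rRNA-depleted total RNA. A single culture was sampled, so that all errors and p-values below describe the spread between libraries of that culture, which may be technical. In bulk samples such as these, fewer cells with a transcript and less of it per cell cannot be told apart.

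The red cell membrane is a lipid bilayer held on a net of spectrin. Spectrin tetramers are tied to the bilayer at 2 kinds of site. Ankyrin, the product of ANK1, links beta spectrin (SPTB) to the anion exchanger band 3 (SLC4A1), with protein 4.2 and the Rh complex nearby. At the spectrin ends, protein 4.1 (EPB41) binds spectrin and actin and reaches the bilayer through glycophorin C (GYPC). RHAG, the Rh-associated glycoprotein, forms a complex with RHD and RHCE, the proteins that carry the Rh antigens, and moves ammonia and gas across the membrane. GYPB, of glycophorin B, carries antigens of the MNS blood group, and GYPE is a gene of the same family. GYPC is unrelated to them in sequence despite its name. Inherited loss of spectrin, ankyrin or protein 4.2 gives spherocytes, and loss of protein 4.1 or glycophorin C gives elliptocytes. Many of these genes carry binding sites of GATA1, the main erythroid transcription factor, which reads the letters GATA.

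GYPB and GYPE are near copies of one another upstream of their starts. The sequences below are the 250 bases before a RefSeq start of GYPB, GYPE, RHAG and GYPC, on the strand of the gene, shown because PRO-seq gives the polymerase density that follows these starts. Capitals mark the 4 GATA motifs that were searched on both strands, so that some appear in reverse complement. The first motif was AGATAA. Another began with T in place of A, TGATAA. The remaining motifs ended with G, as in AGATAG for the one with A at the start. With T at the start it was TGATAG.
GYPB, chr4:144019381-144019630, minus strand, GRCh38: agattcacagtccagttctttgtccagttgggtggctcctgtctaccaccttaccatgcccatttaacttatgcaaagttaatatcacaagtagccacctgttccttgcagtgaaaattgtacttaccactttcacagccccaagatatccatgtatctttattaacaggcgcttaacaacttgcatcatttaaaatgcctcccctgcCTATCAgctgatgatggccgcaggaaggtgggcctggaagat
GYPE, chr4:143905560-143905809, minus strand, GRCh38: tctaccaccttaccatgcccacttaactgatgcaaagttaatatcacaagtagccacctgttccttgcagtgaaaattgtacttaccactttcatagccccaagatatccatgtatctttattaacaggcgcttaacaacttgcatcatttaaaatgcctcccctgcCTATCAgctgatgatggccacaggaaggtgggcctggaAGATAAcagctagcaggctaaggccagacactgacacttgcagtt
RHAG, chr6:49636840-49637089, minus strand, GRCh38: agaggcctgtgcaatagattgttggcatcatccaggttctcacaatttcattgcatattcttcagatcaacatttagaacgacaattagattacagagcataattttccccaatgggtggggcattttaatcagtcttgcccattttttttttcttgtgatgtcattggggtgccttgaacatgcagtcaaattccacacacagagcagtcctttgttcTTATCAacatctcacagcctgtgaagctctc
GYPC, chr2:126655908-126656157, plus strand, GRCh38: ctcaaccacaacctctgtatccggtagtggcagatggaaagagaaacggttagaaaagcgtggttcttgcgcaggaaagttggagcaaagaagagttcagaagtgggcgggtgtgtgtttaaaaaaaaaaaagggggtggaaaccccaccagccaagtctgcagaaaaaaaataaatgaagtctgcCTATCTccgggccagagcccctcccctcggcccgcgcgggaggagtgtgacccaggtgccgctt
The GYPB and GYPE sequences overlap in 209 aligned bases, of which 205 (98.1%) were the same. A motif begins 42 bases before the GYPB start, 31 before that of RHAG and 64 before that of GYPC, and the 2 motifs of GYPE begin 83 and 45 bases before its start. RefSeq gives GYPB a further start downstream, whose window (chr4:144019346-144019595, not printed) holds 2 motifs as that of GYPE does, beginning 77 and 39 bases before that start. RefSeq windows were at hand for 10 starts of 7 of the 8 genes, EPB42 among them. None was at hand for ANK1, whose promoter was not searched. Of the 10 windows 8 hold a motif, at least 1 for each gene searched. A window of EPB41 (chr1:28914319-28914568) and one of SPTB (chr14:64823381-64823630) hold none, and the motifs of these genes lie before another start. Which of these starts the counted EPB41 and SPTB transcripts use was not tested. The GYPB windows overlap one another and nearly match that of GYPE, so the 8 windows with a motif are not separate cases. Of all 35116 windows of the same length, 22.3% hold one. A match of letters is a description and not a measured binding site.

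The libraries were of like depth, with 5732780 to 9002746 counts on transcription units (TUs) in RNA-seq and 6993816 and 7245632 in PRO-seq. TPM, a level scaled by the length of each TU and the total of its library, was computed with exon length for RNA-seq and with the span of the gene less 1000 bp for PRO-seq. Each library is scaled to its own total, so TPM values of the 2 assays share no unit. Their ratio is to be read against the median ratio of the mRNAs tested, 0.643, and not against 1. RNA-seq replicates 1 and 3, and 2 and 4, differed by little more than counting noise (chi-square per degree of freedom 1.11 and 1.12), and the other pairs by more (1.74 to 2.11). The labelled line was checked with 7 genes, of which gamma globin HBG1 reached 1755 to 1908 TPM in RNA-seq and GATA1 reached 148 to 180 TPM. HBE1, of embryonic epsilon globin, had 3033 to 3196 TPM in RNA-seq and was listed at 0 counts in both PRO-seq libraries. Its counted transcript has 918 exonic bases but a span of 236308 bp for PRO-seq. The part of this span in the 0 was not tested, so the 0 is no measure of HBE1 transcription. Of the markers of other lineages, CD3E, MPO and ALB lay between 0.0229 and 0.483 TPM in the summed RNA-seq libraries. EPCAM, an epithelial marker, was present at 117 to 123 TPM. Its part in the results below was not tested.

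RHAG had the highest level of the 7 genes in both assays. Its TPM in RNA-seq was 908, 911, 906 and 910 in replicates 1 to 4, and in PRO-seq 223 and 230 in replicates 1 and 2. The 4 RNA-seq libraries lay close together, and the ratio of RNA-seq to PRO-seq TPM was 4.01, against 0.643 for the median mRNA. Among 18964 annotated mRNAs RHAG ranked at percentile 99.3 in RNA-seq and 98.1 in PRO-seq. No other annotated gene overlaps RHAG, which lies on the minus strand of chromosome 6 (49572888 to 49604552 in GRCh37, 10 exons).

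GYPC followed in RNA level, with 406, 361, 397.5 and 373 TPM in the 4 RNA-seq libraries. In PRO-seq it stood at 75.5 TPM in each of the 2 libraries (771 and 786 counts). Glycophorin C, encoded by 4 exons over 40510 bp of chromosome 2, had a ratio of RNA-seq to PRO-seq TPM of 5.08. That ratio was the highest among the 7 genes.

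GYPB was the least transcribed of the 7 in PRO-seq and yet not in RNA-seq. Its PRO-seq levels were 11.7 and 13.5 TPM, from 67 and 79 counts, just above the 10 TPM needed for a half-life estimate. In RNA-seq it reached 60.3, 38.6, 42.3 and 37.4 TPM, from 142, 96, 67 and 68 counts. Replicate 1 was high and the other 3 lay close together, and every RNA-seq library exceeded both PRO-seq libraries. The counted GYPB transcript (ENST00000506679) is annotated as a target of nonsense-mediated decay. Its 606 exonic bases hold 92.7% of the exon length of the canonical GYPB transcript, so that reads of the canonical mRNA also fall on it.

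GYPE gave PRO-seq levels of 24.1 and 19.8 TPM and RNA-seq levels of 21.7, 24.8, 29.7 and 24.5 TPM. The ratio was 1.13, above the 0.643 of the median mRNA. In PRO-seq GYPE stood 1.75-fold above GYPB, and no library of one overlapped the other. In RNA-seq the order was turned, and GYPB was 1.77-fold above GYPE. Much of both gene spans repeats elsewhere in the genome, and reads that align to more than 1 place were not counted. With lengths over positions that are unique in windows of 36 bases, the summed PRO-seq level was 55.3 TPM for GYPE and 27.5 TPM for GYPB.

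Among the skeleton genes EPB41 was the highest in RNA-seq, at 149.6, 151.5, 154 and 148 TPM. In PRO-seq its levels were 70.1 and 67.8 TPM. The ratio of EPB41 was thus 2.19, above the 0.643 of the median mRNA.

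ANK1 went the other way. It was second only to RHAG in PRO-seq, at 93.2 and 97.4 TPM, which put it at percentile 90.6 of mRNAs. Its RNA-seq levels were 53.4, 48.6, 53.2 and 49.7 TPM, and the ratio of 0.536 was below the 0.643 of the median mRNA. The counted ANK1 transcript spans 243516 bp of chromosome 8 (41510744 to 41754259 in GRCh37, minus strand) and starts 99119 bp before the canonical one, which spans 144397 bp. The PRO-seq level of ANK1 is therefore averaged over a longer stretch than the canonical gene, and the part of this in its ratio was not tested.

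SPTB was the lowest of the 7 in RNA-seq, at 21.7, 21.2, 19.3 and 19.5 TPM, and lay at 26.3 and 28.9 TPM in PRO-seq. The ratio was 0.747, which is above the 0.643 of the median mRNA. With 36 exons and 10177 exonic bases, beta spectrin had the longest mRNA of the 7, and its gene overlaps PLEKHG3 on the other strand.

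**Figure D1:**
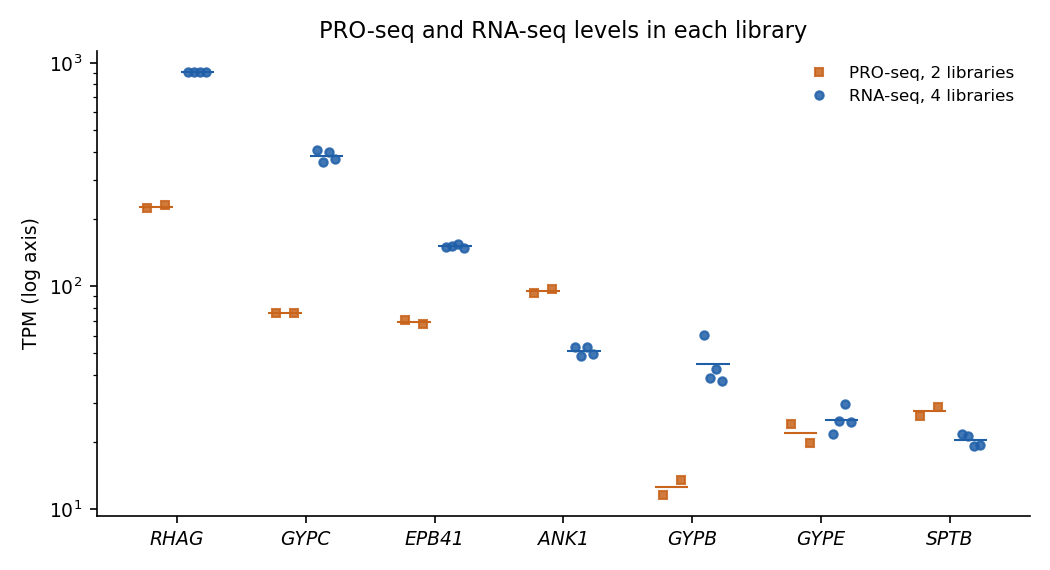
Level of each of the 7 genes in each library, in TPM on a log axis, with genes ordered by RNA-seq level. Squares are the 2 PRO-seq libraries, circles the 4 RNA-seq libraries, and short lines the means. RHAG leads in both assays at 227 and 909 TPM, and the RNA-seq values of ANK1 and SPTB lie below their PRO-seq values.

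The order of the genes differed between the assays. In RNA-seq it ran RHAG, GYPC, EPB41, ANK1, GYPB, GYPE and SPTB, and only the neighbours ANK1 and GYPB, and GYPE and SPTB, had libraries that overlapped. In PRO-seq it ran RHAG, ANK1, GYPC, EPB41, SPTB, GYPE and GYPB, with no overlap between neighbours in the 2 libraries. The highest and the lowest gene were 44.1-fold apart in RNA-seq TPM and 18.0-fold apart in PRO-seq TPM. The lower end of the PRO-seq order rested on the lengths used. With lengths over positions unique in 36-base windows GYPE (60.7 and 49.9 TPM) came before SPTB (27.7 and 30.5 TPM) and GYPB (25.5 and 29.5 TPM), the libraries of SPTB and GYPB overlapped, as did those of GYPC and EPB41, and the range was 9.29-fold. With 150-base windows the order was as first given, the libraries of SPTB and GYPE overlapped, and the range was 16.7-fold.

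The ratio of RNA-seq to PRO-seq TPM estimates RNA half-life up to a constant, on the assumption that synthesis and decay balance and that polymerase density tracks synthesis. It has no unit, so each gene was set against the median mRNA, whose ratio was 0.643 (log2 of -0.64). Positive log2 values below mean a longer estimated half-life than that of the median mRNA. Each value was tested with edgeR's quasi-likelihood test, with p-values adjusted over all 9929 TUs past the thresholds (PRO-seq over 10 TPM, RNA-seq over 1 TPM), and its SE is approximate. All 7 genes passed these thresholds. The authors found half-life estimates from these libraries more variable than those from published data, with little difference in sensitivity. They also found them less close to published half-lives, and rested their main analyses on the published data.

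Of the 7, 6 were called above the median mRNA, where 40.4% of all TUs tested were, and 1 was called below it, where 50.0% were. Their median log2 half-life was 1.765, beside -0.23 over all TUs tested and quartiles of -1.06 and 1.08 over mRNAs. Members of a short list chosen by name are no sample of red cell genes, and their count is a description.

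The longest estimates belonged to the 2 membrane-spanning proteins with the most RNA. GYPC stood 2.98 above the median mRNA on the log2 scale (SE 0.057, edgeR adjusted p = 4.13e-29), which is 7.91-fold and percentile 96.2 of 8733 mRNAs. RHAG stood 2.64 above it (SE 0.037, edgeR adjusted p = 2.13e-32), or 6.24-fold. For both genes the value without any 1 library stayed within 2.63 and 3.02.

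GYPB came next at 2.48 (SE 0.167, edgeR adjusted p = 8.75e-15), or 5.57-fold, with the largest error of the 7. With lengths over positions unique in 36-base windows it stood at 1.59 (edgeR adjusted p = 3.73e-10). Leaving out each library in turn gave 2.27 to 2.57, the lowest without RNA-seq replicate 1. EPB41 stood at 1.765 (SE 0.038, edgeR adjusted p = 1.07e-27), or 3.40-fold.

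GYPE, SPTB and ANK1 lay within the middle range of mRNAs. GYPE was called above the median at 0.82 (SE 0.115, edgeR adjusted p = 1.09e-07), or 1.76-fold. With lengths over positions unique in 36-base windows the direction turned, to -0.19, and the call was lost (edgeR adjusted p = 0.116). SPTB was called above it at 0.21 (SE 0.059, edgeR adjusted p = 0.00137), or 1.16-fold, a call that was lost without PRO-seq replicate 1 (0.15, adjusted p = 0.0502). Its ratio of 0.747, though under 1, is higher than the 0.643 of the median mRNA. ANK1 was called below it at -0.26 (SE 0.040, edgeR adjusted p = 5.83e-07), or 1.20-fold lower. None of these 3 differences passed when a difference of more than 2-fold was tested with edgeR. With every TU that had at least 1 count in each assay the median mRNA ratio shifted by -0.63 (log2), and ANK1 then stood at 0.37 above it.

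**Figure D2:**
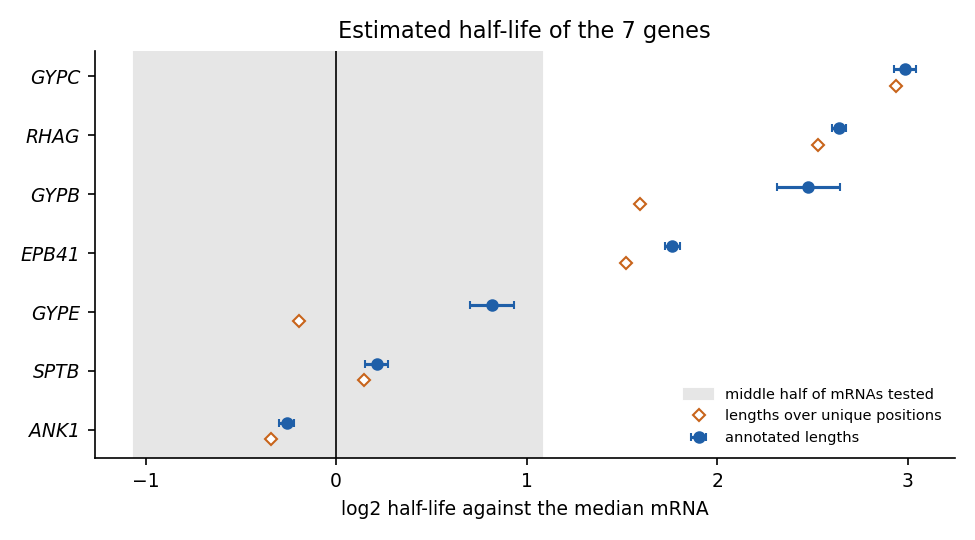
Estimated half-life of the 7 genes against the median mRNA, on a log2 scale. Filled circles are the estimates with annotated lengths and their approximate SE, open diamonds those with lengths of unique positions only (36-base span windows), and the grey band runs between the quartiles of mRNAs tested (-1.06 and 1.08). GYPC, RHAG, GYPB and EPB41 lie right of the band, and GYPE crosses 0 with these unique lengths.

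The 7 genes were also compared with each other, as the log2 ratio of one gene to another in RNA-seq less that in PRO-seq, over 21 pairs. With 4 against 2 libraries an exact two-sided permutation test has 15 arrangements and cannot give less than p = 0.0667, so that no pair could pass. The widest pair was GYPC and ANK1, with a difference of 3.24 (SE 0.032, exact permutation p = 0.0667, adjusted over the 21 pairs 0.07). GYPC exceeded EPB41, its partner at the spectrin ends, by 1.22 (SE 0.046, exact permutation p = 0.0667, adjusted 0.07). SPTB exceeded ANK1, to which its product binds, by 0.46 (SE 0.067, exact permutation p = 0.0667, adjusted 0.07). GYPB and RHAG were the closest pair, with GYPB lower by 0.20 (SE 0.179, exact permutation p = 0.467, adjusted 0.467), and their libraries overlapped. With lengths over positions unique in 36-base windows GYPB (1.59) lay nearer to EPB41 (1.52) than to RHAG (2.53).

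**Figure D3:**
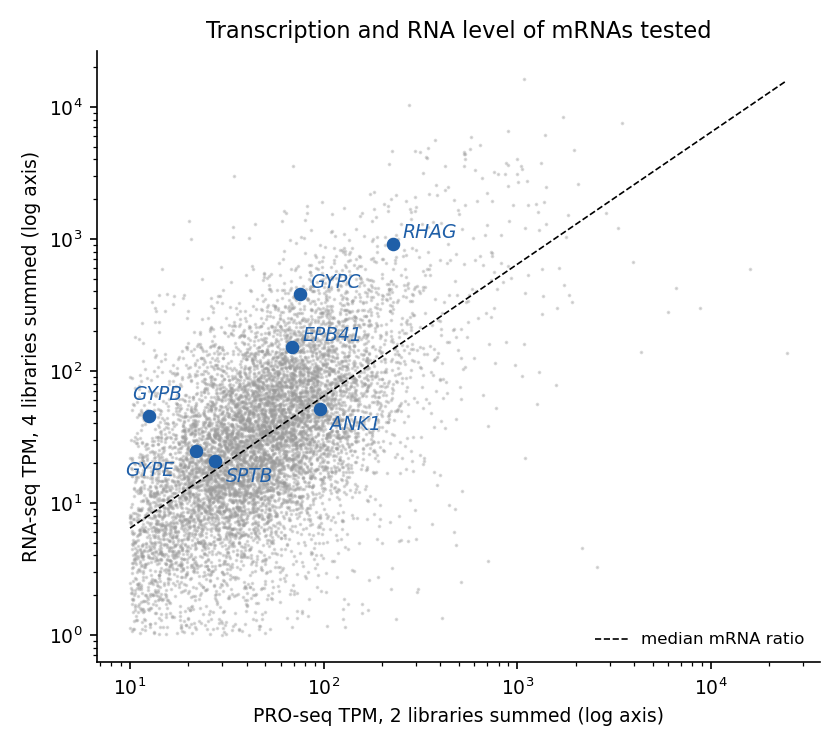
RNA-seq TPM against PRO-seq TPM, both summed over libraries and on log axes, for the 8733 mRNAs tested (grey) and the 7 genes (blue). The dashed line marks the median mRNA ratio of 0.643. GYPC, RHAG, GYPB and EPB41 lie well above the line, GYPE and SPTB close to it, and ANK1 just under it.

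Sequence that occurs more than once in the genome bears on these estimates in GYPE and GYPB more than in the other genes. In an exact search of the GRCh37 genome and annotation, 83.7% of the 75-base windows in GYPE exons and 96.4% of those in GYPB exons occurred nowhere else. Over the gene spans, where PRO-seq reads fall, the share of 36-base windows that were unique was 39.7% for GYPE and 45.8% for GYPB. For the other 5 genes it was 83.3% to 94.8%, with 99.7% or more of exon windows unique. The span window was chosen here, and the length of the PRO-seq reads after trimming is not known. With longer windows, tried after seeing the data, the unique share of the span rose to 66.3% (75 bases) and 88.2% (150 bases) for GYPE and to 73.7% and 92.7% for GYPB. The log2 half-life of GYPE with lengths over unique positions thus depended on the window, at -0.19 with 36 bases (edgeR adjusted p = 0.116), 0.54 with 75 bases (edgeR adjusted p = 6.93e-05) and 0.95 with 150 bases (edgeR adjusted p = 5.65e-09). That of GYPB was 1.59, 2.275 and 2.60, above the median mRNA with each.

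Other annotated genes lie within most of the spans, and it is not stated whether the counting used strand. On the other strand GYPE overlaps 1 gene (ENSG00000251600) and GYPB overlaps 2 (ENSG00000251600 and ENSG00000286055). EPB41 overlaps 2 genes on the other strand and 1 on its own, and GYPC overlaps 1 on its own. ANK1 overlaps 4 on the other strand, the microRNA gene MIR486 among them, and 2 on its own. The part of these genes in the counts was not tested.

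The 7 transcripts differ widely in size, and estimated half-life did not follow size in strict order. ANK1 has 43 exons, SPTB 36 and EPB41 21, and their exon lengths lie at percentiles 94.0, 96.8 and 84.2 of the mRNAs tested. GYPB, GYPC, GYPE and RHAG have 4 to 10 exons and exon lengths of 606 to 1895 bases, below the median mRNA of 3064. Of these 4 short mRNAs, GYPC, RHAG and GYPB had the 3 longest estimated half-lives and GYPE one near the middle. The longest mRNAs, SPTB and ANK1, had the lowest estimates, but the long EPB41 mRNA lay above GYPE. A relation between size and half-life was not tested. The coding part is short in GYPC (384 bases without the stop codon) and GYPE (234 bases), and the 3′ UTR of GYPE, at 1401 bases, is longer than that of GYPC (528 bases) and RHAG (641 bases). Splice junctions were densest in GYPB, with 8.25 per kb of exon (percentile 97.9), and sparsest in GYPE, with 1.78 per kb (percentile 28.1). Exonic GC content fell into 2 sets, at 58.6% to 59.2% in ANK1, GYPC and SPTB and at 42.2% to 47.1% in GYPB, GYPE, RHAG and EPB41, and each set held genes with long and with shorter estimates.

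Each gene was set beside its closest relatives. SPTBN1, the widely expressed beta spectrin, was the leading relative of SPTB in RNA-seq at 68.5 to 74.2 TPM and stood 1.86 above the median mRNA (edgeR adjusted p = 2.26e-26). SPTB was thus not the beta spectrin gene with the most RNA in these libraries.

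ANK3 was the leading relative of ANK1 in both assays, at 10.96 to 12.4 TPM in RNA-seq and 13.9 and 14.4 TPM in PRO-seq, all below ANK1. EPB41L2 led the relatives of EPB41, at 19.7 to 20.7 TPM in RNA-seq and 16.2 and 16.5 TPM in PRO-seq, again far below it. RHCE led those of RHAG, at 27.6 to 33.9 TPM in RNA-seq and 40.4 and 43.0 TPM in PRO-seq. In RNA-seq its libraries overlapped those of RHD (27.0 to 33.7 TPM), and in PRO-seq RHD was lower, at 19.2 and 22.8 TPM. Unique positions were not searched for RHCE and RHD, and the part of repeated sequence in their order was not tested. RHBG and RHCG, the Rh glycoproteins of other tissues, were listed at 0 counts in every RNA-seq library.

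Of the relatives of EPB42, the transglutaminase TGM2 was the highest, at 8.53 to 12.9 TPM in RNA-seq and 49.5 and 56.3 TPM in PRO-seq, and TGM3 was listed at 0 counts in all 6 libraries. TGM2 (-1.69) and EPB41L5 (-0.44) had the lowest log2 half-lives of the relatives, and GYPB and SPTBN1 the highest. Of 22 relatives listed, GYPB and GYPE among them, 21 were matched and 9 tested, of which 7 were called above the median mRNA (40.4% of all TUs tested) and 2 below it (50.0% of all).

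The rest of the red cell membrane was read from 2 further lists, of other skeleton proteins and of other integral membrane proteins. All 9 skeleton genes were tested, 6 were called above the median mRNA (40.4% of all TUs tested) and 3 below it (50.0% of all), and their median log2 half-life was 0.70. The highest were MPP1, the gene of the p55 protein that binds protein 4.1 and glycophorin C, at 2.82 (SE 0.048, edgeR adjusted p = 2.31e-30), and the tropomyosin TPM3 at 2.635 (SE 0.046, edgeR adjusted p = 5.31e-30). MPP1 had 539 to 556 TPM in RNA-seq and 116 and 124 TPM in PRO-seq. The lowest were ACTB, of beta actin, at -1.24 (SE 0.058) and TMOD1, of the tropomodulin that caps actin, at -1.22 (SE 0.073). The ACTB value rests on a PRO-seq length of only 1830 bp. Unique positions were not searched for the genes of this list, and the part of repeated sequence in their values was not tested.

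Of 27 integral membrane genes 24 were matched and 17 tested, of which 10 were called above the median mRNA (40.4% of all TUs tested), 5 below it (50.0% of all) and 2 not called, with a median of 0.25. BSG, of basigin, stood at 3.26 (SE 0.080) and CD59, of a complement inhibitor, at 2.41 (SE 0.065). CD44 stood at -1.35 (SE 0.116) and KEL, of the Kell antigen, at -1.33 (SE 0.070). GYPC and RHAG, at 2.98 and 2.64, lay between BSG and CD59. SLC4A1, the band 3 gene to which ankyrin binds, was named after its values were seen and was low in both assays, at 2.69 to 3.74 TPM in RNA-seq and 5.16 and 7.49 TPM in PRO-seq, and was not tested. XK, the partner of Kell, had 1458 summed counts in RNA-seq and was listed at 0 in both PRO-seq libraries, as was ABCB6 with 48 counts in RNA-seq. What gave the 0 counts of XK and ABCB6 was not tested, so they are no measure of transcription.

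**Figure D4:**
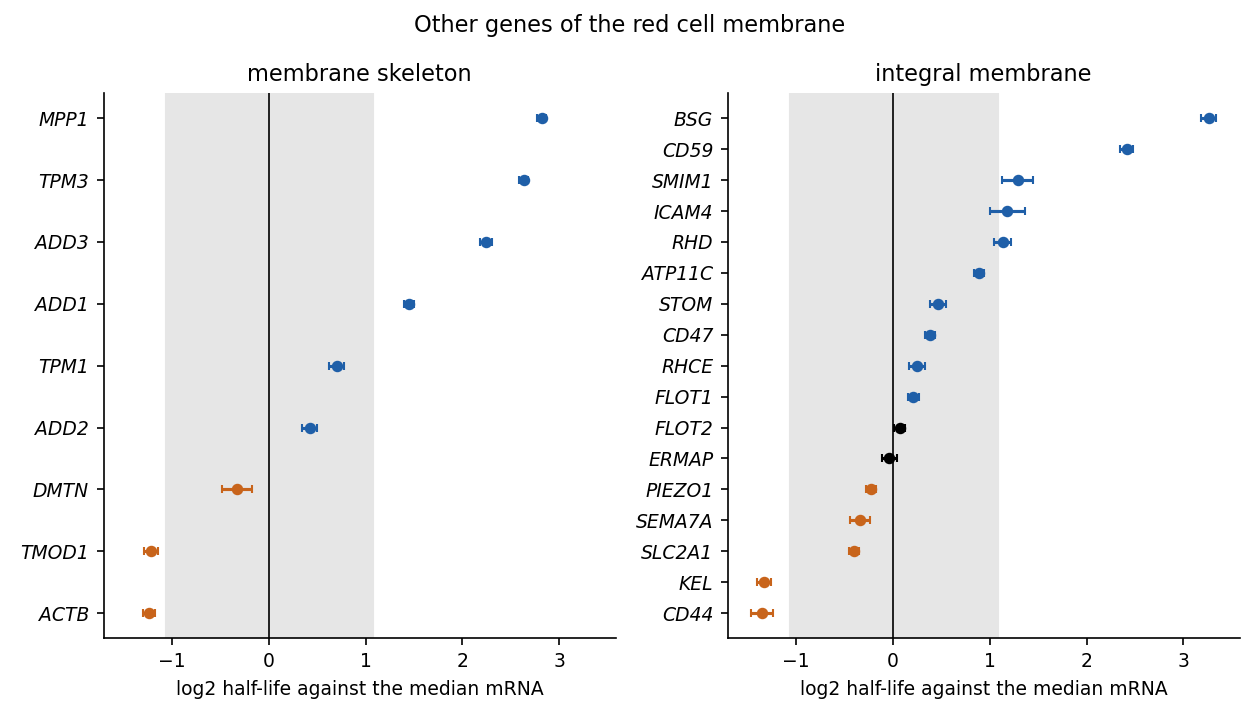
Estimated half-life against the median mRNA, on a log2 scale with approximate SE, for the 9 skeleton genes (left) and the 17 integral membrane genes tested (right). Blue is called above, orange below and black neither, and the grey band runs between the quartiles of mRNAs tested. MPP1 and BSG lead the lists, and ACTB and CD44 are lowest.

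The erythroid regulators and the haem pathway were compared as 2 other erythroid groups. Of 10 regulators 9 were tested, with 5 called above the median mRNA (40.4% of all TUs tested), 3 below it (50.0% of all), 1 not called and a median of 0.49. GFI1B (1.504) and GATA1 (1.47) were the highest, ZFPM1, the GATA1 cofactor, the lowest (-3.18), followed by TAL1 (-0.87), and BCL11A was listed at 0 counts in RNA-seq. Of 9 haem enzymes 6 were matched and tested, with 1 above (40.4% of all TUs), 4 below (50.0% of all), 1 not called and a median of -0.22. UROD stood at 2.49, ALAS1 at 0.08 without a call, ALAD at -0.60 and FECH at -0.70. The differences between these lists and the 7 genes were not tested.

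The nearest mRNA to each gene was sought by distance in log2 PRO-seq and RNA-seq TPM among the 8733 mRNAs tested. SNRPG was nearest to RHAG with a PRO-seq level of 230.2 TPM and an RNA-seq level of 879 TPM. CIAO2A was nearest to GYPC at 77.0 and 389 TPM, GNAI2 to GYPB at 12.5 and 47.3 TPM, and CNOT10 to EPB41 at 71.4 and 151 TPM. DPH7 was nearest to ANK1, RAB40C to GYPE and COQ6 to SPTB. All lay within a distance of 0.062 on the log2 scale.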

How the data were processed

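PRO-seq (n = 2) and total RNA-seq (n = 4) of K562 cells were read as raw counts per transcript, which the authors deposited without normalization. Per the submitters' processing notes and the methods, cutadapt trimmed the reads, HISAT2 aligned them to GRCh38 and HTSeq counted them, in PRO-seq without the first and last 500 bp of a gene. Tool versions were not stated. Rows that name no TU held 66.5% to 88.6% of the records of a library and were left out, as were 801 LRG rows, all at 0. Transcripts were joined by identifier to GENCODE on GRCh37 (88.1% matched), so lengths can differ from those counted on.

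Members, gene lists and tests were chosen with earlier results of these data known. From each further list the 2 highest and 2 lowest log2 half-lives, the TUs at 0 in an assay, each member's leading relative in each assay and its nearest mRNA were named. edgeR 4.0.16 (R 4.3.3) was fitted to all 9929 TUs past 10 TPM (PRO-seq) and 1 TPM (RNA-seq), with TMM normalization, length offsets and Benjamini-Hochberg adjustment at 0.05. The SE is the log2 value over the root of F. DESeq2 1.42.0, other thresholds and lengths, and each library left out were alternatives. Summing the close RNA-seq pairs, 75- and 150-base span windows, and PRO-seq levels over unique positions were added after seeing the data. A few genes of the further lists are not reported here. Uniqueness was searched with 75-base exon and 36-base span windows. Promoters are from RefSeq. Python 3.11.15 was used, and fits and searches were tested on simulated data. GYPB and GYPE had the fewest counts and the largest SE of the 7 genes, and the part of library depth in their SE was not tested.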

Additional observations from a re-analysis of the deposited data

How the results depend on the processing

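Over the 7 log2 half-lives, GYPC, RHAG, GYPB and EPB41 kept their direction and their call under every alternative run, with ranges of 2.94 to 3.61, 2.53 to 3.27, 1.59 to 3.11 and 1.52 to 2.39. GYPB gave no value at the stricter thresholds (PRO-seq over 20 TPM, RNA-seq over 2 TPM). ANK1 turned from -0.26 to 0.37 with at least 1 summed count in each assay, where the median mRNA ratio itself shifted by -0.63, and GYPE turned from 0.82 to -0.19 with lengths over unique positions (36-base span windows), and stood at 0.54 and 0.95 with 75- and 150-base windows, which were added after seeing the data. Tested against a 2-fold difference, the values of ANK1 (-0.26), GYPE (0.82) and SPTB (0.21) lost their calls. The count below the median mRNA was 1, and 0 under both the 1-count minimum and the 2-fold test. The count above was 6, and 4 to 7 under the alternatives.

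Without 1 library at a time, SPTB ranged from 0.15 to 0.26, and its call was lost without PRO-seq replicate 1 (adjusted p = 0.0502). The other ranges were -0.29 to -0.23 for ANK1, 1.72 to 1.80 for EPB41, 2.27 to 2.57 for GYPB, 2.95 to 3.02 for GYPC, 0.67 to 0.97 for GYPE and 2.63 to 2.65 for RHAG, with no call lost.

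Over all TUs the calls above and below were 4010 and 4961, against 2138 and 2898 for the 2-fold test and 6634 and 7596 of 20644 TUs with at least 1 count in each assay. With replicate number as a block, GYPB stood at 2.59, GYPE at 0.72, SPTB at 0.27 and ANK1 at -0.27, and the counts were 3920 and 4860. No call among the 7 genes changed with the block. The labels do not say whether equal replicate numbers share an origin. The differences between replicates 1 and 2 of the 2 assays correlated at -0.0113 over 9841 TUs.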
